A study of Homo sapiens with 6 samples.

Results

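The genes described here encode the TGF-beta ligands (TGFB1, TGFB2, TGFB3), the activin subunit INHBA, the latent TGF-beta binding proteins LTBP1 and LTBP2, the receptors TGFBR1, TGFBR2 and TGFBR3, and the TGF-beta-induced matrix protein TGFBI. They were chosen by name with earlier results of these data known, as were the gene lists set beside them below. All 10 were found among the 18417 genes tested, each through 1 probe set that carries that gene symbol alone. Expression was measured on 6 arrays of H358, an established line of non-small cell lung cancer. Cells stably expressed GFP (3 arrays) or TwistER (3 arrays), and both lines were kept for 12 days with 100 nM 4-hydroxytamoxifen (4OHT) in medium with 10% serum. TwistER constructs join the Twist transcription factor to a tamoxifen-responsive part of the estrogen receptor. The titles place the GFP arrays before, and the TwistER arrays after, epithelial-mesenchymal transition (EMT). TwistER cells without 4OHT are not analysed here, so what activating the factor did and what else sets the lines apart cannot be told apart, and the labels used here name neither the construct's promoter nor whether a line is 1 clone. The titles call the samples biological replicates without saying how they were kept apart, so p-values measure only the spread between these samples. Values are log2 expression made with RMA, and each difference is TwistER minus GFP on that scale.

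TGF-beta is secreted in a latent form, bound to its own propeptide and, through it, to latent TGF-beta binding proteins that tether it to the matrix. Once released, among others by integrins that pull on the propeptide, the dimer binds TGFBR2, which then recruits and phosphorylates TGFBR1. That kinase phosphorylates SMAD2 and SMAD3, which enter the nucleus with SMAD4. Activin A, a dimer of the INHBA product, signals to the same SMADs through its own receptors. In epithelial cells the pathway is known for growth restraint and for inducing EMT.

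Transcripts of INHBA, the TGF-beta ligands, LTBP2 and TGFBR2, the receptor that binds TGF-beta first, were higher in the TwistER cells. The calls of TGFB1 and TGFB2 were lost on dropping any array but GFP replicate 1. INHBA was 7.73-fold, TGFB3 2.26-fold and TGFBR2 2.09-fold higher, while LTBP2 (1.65-fold), TGFB1 (1.42-fold) and TGFB2 (1.40-fold) differed by less. Of the 10 genes, 6 rose and 0 fell at an adjusted p under 0.05 (limma, Benjamini-Hochberg over all genes), where 4.72% of all genes tested rose and 4.11% fell. LTBP1, TGFBR1, TGFBR3 and TGFBI did not pass. At an unadjusted limma p under 0.05, 8 were higher and 0 lower, where 10.4% of all genes were higher and 11.1% lower. The 3 rises of at least 2-fold stand beside 1.66% of all genes with a call of that size. The median difference of the 10 was 0.51, against 0.0063 over all genes. Array values of the groups did not overlap for 8 of the 10, all higher in TwistER, as for 13.9% of all genes. The number of the 10 that rose was 3 without TwistER replicate 2, where 2.57% of all genes rose, and 3 without TwistER replicate 3 (2.98% of all genes). It was 6 without GFP replicate 1, where 6.97% of all genes rose.

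**Figure D1:**
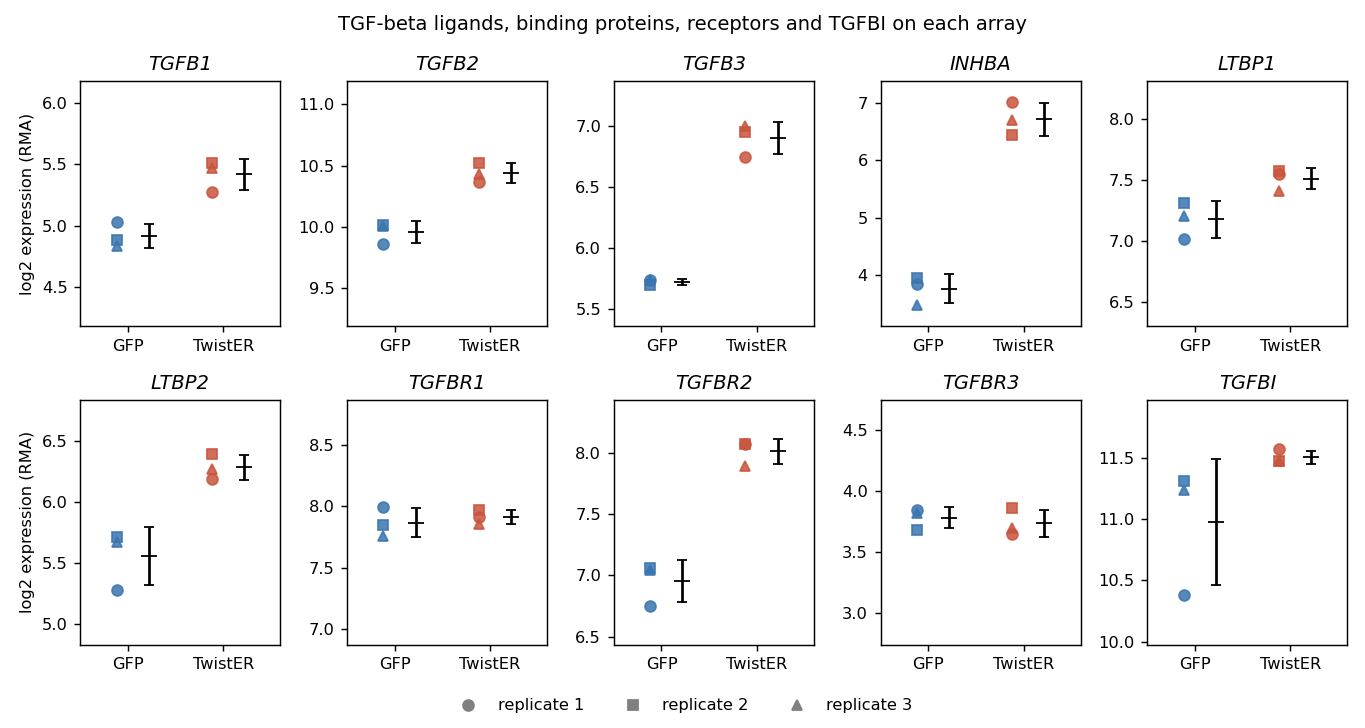
Log2 expression (vertical axes, a separate range for each gene) on each array of the GFP (blue) and TwistER (red) lines, with marker shapes for the replicate number and black bars for mean ± SD (n = 3). INHBA lies between 3.49 and 3.96 in GFP and between 6.44 and 7.01 in TwistER, whereas the groups of TGFBR1 and TGFBR3 overlap.

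The first principal component of all genes (57.6% of the variance) separated the lines. GFP replicate 1 stood apart, with a correlation over genes of 0.982 with each of the other GFP arrays, while these correlated at 0.996 with each other. Over all genes, 1627 changed in either direction, and 2773 did without that array. The labelled cell type was checked against 17 measured airway and lung epithelial markers. Of these, 8 fell (47.1%) and 0 rose, where 4.11% of all genes fell and 4.72% rose. At an unadjusted limma p under 0.05, 10 fell and 0 rose, where 11.1% of all genes were lower and 10.4% higher. CDH1 (-4.99), AGR2 (-4.43), EPCAM (-3.28), KRT19 (-3.22), CLDN7 (-1.65) and MUC1 (-1.29) fell by the most. The lung lineage genes NKX2-1, SFTPB, SFTPC, SCGB1A1 and NAPSA, singled out after their values were seen, lay between the 27.9 and 33.9 percentiles of brightness over all genes and did not pass. Summed on the linear scale, the epithelial markers reached 7916 to 8454 in GFP and 1855 to 1898 in TwistER. Of 15 fibroblast markers 5 rose (33.3%), COL3A1 (2.13), FBLN1 (1.85), PDGFRA (1.01), S100A4 (0.64) and COL1A1 (0.54), and 1 fell (6.67%), LUM (-1.63). Their sums were 601 to 677 in GFP and 833 to 871 in TwistER, and 5 of the 15 lay below the 25 percentile of brightness. The dimmest was DCN (2.19 percentile), and the brightest were S100A4 (6.84 on average in GFP, 7.48 in TwistER) and LUM (70.8 percentile). Of 9 leukocyte and endothelial markers 2 rose (22.2%), KDR (1.79) and PECAM1 (0.61), and 0 fell, with sums of 190 to 198 in GFP and 291 to 311 in TwistER. The brightness of these 9 ran from the 4.67 percentile (LYZ) to the 64.4 percentile (CD68), with 4 below the 25 percentile. The call of COL1A1 held with 1 array left out only where that was GFP replicate 1 (highest limma adjusted p 0.142), that of S100A4 was lost without TwistER replicate 1 (0.0529), and that of PECAM1 without GFP replicate 2 or TwistER replicate 1 or 3 (highest 0.0765). The part of other cell types in the differences given here was not tested. On arrays of whole cultures, fewer cells of a type and less RNA per cell cannot be told apart.

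The stretches before the starts of INHBA, TGFB3, TGFBR2 and TGFB2 are shown because the first 3 of these genes rose by at least 2-fold and TGFB2 has the same E-box letters as TGFB3. Each is the 250 bases upstream of the start in the RefSeq table (GRCh38.p14), 5′ to 3′ on the gene's strand, and all 10 genes matched that table. INHBA (minus strand) is shown for chr7:41703091-41703340, TGFB3 (minus) for chr14:75983012-75983261, TGFBR2 (plus) for chr3:30606106-30606355 and TGFB2 (plus) for chr1:218345086-218345335. RefSeq's INHBA gene runs on to position 41705406, so its window lies inside the annotated gene. The same holds for TGFBR1 (window chr9:99104863-99105112, gene from 99103647) and TGFBR3 (window chr1:91886152-91886401, gene to 91906002), while the windows of the other 7 genes lie outside theirs. Capitals mark the E-box CANNTG, the general pattern of short sequences that Twist and other helix-loop-helix factors bind. Which of these factors, if any, binds a given match was not tested.
INHBA: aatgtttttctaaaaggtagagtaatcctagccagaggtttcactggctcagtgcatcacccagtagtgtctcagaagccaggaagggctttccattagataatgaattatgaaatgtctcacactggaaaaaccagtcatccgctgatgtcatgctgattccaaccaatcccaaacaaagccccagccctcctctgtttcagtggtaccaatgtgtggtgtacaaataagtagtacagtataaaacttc
TGFB3: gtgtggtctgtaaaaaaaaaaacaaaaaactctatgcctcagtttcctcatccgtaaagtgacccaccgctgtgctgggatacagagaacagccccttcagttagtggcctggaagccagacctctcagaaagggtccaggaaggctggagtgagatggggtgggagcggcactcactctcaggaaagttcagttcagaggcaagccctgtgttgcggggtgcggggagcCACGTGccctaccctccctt
TGFBR2: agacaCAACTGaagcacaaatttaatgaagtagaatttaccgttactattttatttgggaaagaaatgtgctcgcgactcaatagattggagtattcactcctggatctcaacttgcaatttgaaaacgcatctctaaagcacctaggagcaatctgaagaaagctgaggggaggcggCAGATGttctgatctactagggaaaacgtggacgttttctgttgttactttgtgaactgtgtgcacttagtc
TGFB2: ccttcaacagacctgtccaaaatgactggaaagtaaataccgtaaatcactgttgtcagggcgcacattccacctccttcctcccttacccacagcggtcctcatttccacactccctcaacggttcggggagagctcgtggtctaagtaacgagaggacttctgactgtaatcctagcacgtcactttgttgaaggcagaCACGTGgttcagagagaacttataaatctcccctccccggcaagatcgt

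An E-box was found before the start of TGFB2, TGFB3, LTBP2 and TGFBR2, that is 4 of the 10 genes, and in 62.2% of 27305 RefSeq windows of the same length. The match in both TGFB2 and TGFB3 was CACGTG, beginning 49 and 20 bases before the start. TGFBR2 held CAACTG and CAGATG, beginning 245 and 72 bases before it, and LTBP2 held CATCTG at 217. The narrower pair CAGATG or CATATG, read on both strands and contained in the E-box, was present for TGFBR2 and LTBP2 and in 14.4% of all windows. The SMAD box CAGAC, on either strand, was present for TGFB2, TGFB3, LTBP1 and TGFBR1, and in 37.8% of all windows. In TGFB2, 1 SMAD box shares a base with the E-box. The AP-1 site TGANTCA, on either strand, was in 0 of the 10 and in 6.60% of all windows. The INHBA window held none of these letters, and no match says only that they are not in this stretch.

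INHBA showed the largest difference of the 10 genes. It encodes the beta-A subunit, which pairs with itself to form activin A and with the alpha subunit to form an inhibin. INHBA read 3.86, 3.96 and 3.49 in GFP replicates 1 to 3 and 7.01, 6.44 and 6.70 in TwistER replicates 1 to 3. The lowest TwistER array was 2.48 above the highest GFP array on the log2 scale. The INHBA difference was 2.95 ± 0.18 (SE, n = 3 per line), with a 95% interval of 2.54 to 3.36 and a limma adjusted p of 3.39e-05. Counted from the highest, it ranked 10 among the differences of all 18417 genes. In GFP its mean was at the 18.6 percentile of brightness, in the dim range where background light compresses differences, and in TwistER at the 69.8 percentile. Leaving out any 1 array gave INHBA differences of 2.80 to 3.09, each past the test.

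Of the ligands named for TGF-beta, TGFB3, which is known for its part in palate closure and wound repair, differed most. TGFB3 read 5.74, 5.70 and 5.74 in GFP and 6.75, 6.95 and 7.00 in TwistER. All TwistER arrays were at least 1.01 above every GFP array, and the GFP arrays had an SD of 0.023. The TGFB3 difference was 1.17 ± 0.11, 95% interval 0.92 to 1.43, with a limma adjusted p of 0.000375. It stayed between 1.13 and 1.25 with any 1 array left out, and each of these fits passed.

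TGFB1, the most widely expressed isoform in the body, read 5.03, 4.89 and 4.84 in GFP and 5.27, 5.51 and 5.47 in TwistER. Its groups did not overlap, with a gap of 0.25 between the nearest arrays. The TGFB1 difference was 0.50 ± 0.12 (adjusted p = 0.0312), 95% interval 0.24 to 0.77. TGFB2, the isoform that depends most on the co-receptor betaglycan for binding, was bright in both lines, at 9.86, 10.01 and 10.00 in GFP and 10.36, 10.52 and 10.44 in TwistER. The TGFB2 arrays did not overlap either, and the difference was 0.48 ± 0.11 (adjusted p = 0.0272), 95% interval 0.24 to 0.73. Both calls depended on every array except GFP replicate 1. TGFB1 lost its call without GFP replicate 2 (limma adjusted p = 0.104), GFP replicate 3 (0.0995) or TwistER replicate 1 (0.0537), 2 (0.140) or 3 (0.119), with differences of 0.46 to 0.57. TGFB2 lost it without the same arrays, at adjusted p-values of 0.0709 and 0.0660 for the GFP arrays and 0.0728, 0.129 and 0.0918 for the TwistER arrays, with differences of 0.43 to 0.52 over all 6 omissions. Without GFP replicate 1 both passed (0.0128 for TGFB1 and 0.0213 for TGFB2).

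**Figure D2:**
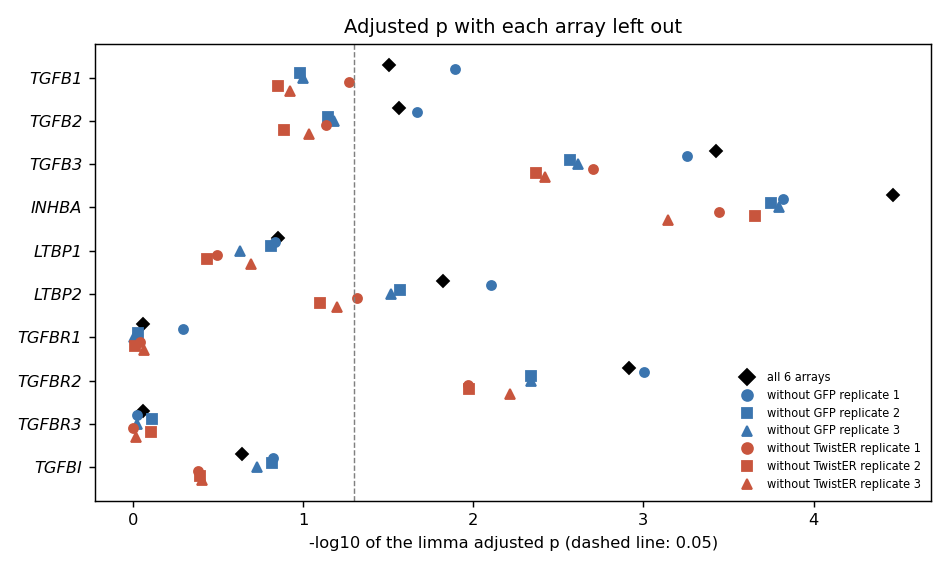
Minus log10 of the limma adjusted p (horizontal axis) for each gene with all 6 arrays (black diamonds) and with each GFP (blue) or TwistER (red) array left out, marker shapes giving the replicate number. INHBA, TGFB3 and TGFBR2 lie right of the dashed line at 0.05 in every fit, and TGFB1 and TGFB2 only with all 6 arrays or without GFP replicate 1.

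The latent TGF-beta binding proteins hold the secreted complex in the matrix, although LTBP2, unlike LTBP1, is known to lack a covalent bond to the latent ligand. LTBP2 read 5.28, 5.72 and 5.68 in GFP and 6.19, 6.39 and 6.27 in TwistER. All TwistER arrays were higher, and GFP replicate 1 was the lowest of the 6, by 0.41 against the mean of the other GFP arrays. The LTBP2 difference was 0.72 ± 0.14, 95% interval 0.40 to 1.05, with a limma adjusted p of 0.0150. It was 0.59 without GFP replicate 1 and passed (0.00787), but did not pass without TwistER replicate 2 (0.0800) or TwistER replicate 3 (0.0633). LTBP1 read 7.02, 7.31 and 7.20 in GFP and 7.55, 7.57 and 7.41 in TwistER, without overlap but with a gap of 0.097 between the nearest arrays. Its difference of 0.33 ± 0.12 did not pass (limma adjusted p = 0.140), although its unadjusted 95% interval of 0.06 to 0.60 lies above 0.

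Of the receptors, TGFBR2 rose and the others did not pass. TGFBR2, the type II kinase that binds the ligand first, read 6.75, 7.06 and 7.04 in GFP and 8.08, 8.07 and 7.90 in TwistER. Every TwistER array was at least 0.83 above every GFP array. The TGFBR2 difference was 1.06 ± 0.13, 95% interval 0.77 to 1.35, with a limma adjusted p of 0.00121, and it passed with any 1 array left out (0.96 to 1.12). TGFBR1, the type I kinase that passes the signal to the SMADs, read 8.00, 7.85 and 7.76 in GFP and 7.91, 7.97 and 7.86 in TwistER, and its groups overlapped. The TGFBR1 difference of 0.045 ± 0.11 did not pass (limma adjusted p = 0.872), with a 95% interval of -0.21 to 0.30. TGFBR3, betaglycan, which presents ligand to TGFBR2 and also binds inhibin, was dim in both lines, at 3.84, 3.68 and 3.82 in GFP and 3.65, 3.86 and 3.70 in TwistER. These values overlapped, and the difference of -0.046 ± 0.11 did not pass (adjusted p = 0.873, 95% interval -0.30 to 0.21). With means at the 18.8 and 17.7 percentiles of brightness, a difference in TGFBR3 may be hidden by background light.

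TGFBI, an extracellular matrix protein named for its induction by TGF-beta, lay at the 98.9 percentile of brightness in GFP and the 99.5 percentile in TwistER. TGFBI read 10.38, 11.31 and 11.24 in GFP and 11.57, 11.47 and 11.47 in TwistER. Each TwistER array was above each GFP array, and GFP replicate 1 lay 0.89 below the mean of the other GFP arrays. The TGFBI difference of 0.53 ± 0.23 did not pass (limma adjusted p = 0.227, unadjusted 95% interval 0.0053 to 1.05). Without GFP replicate 1 it was 0.23 and did not pass either (0.151).

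**Figure D3:**
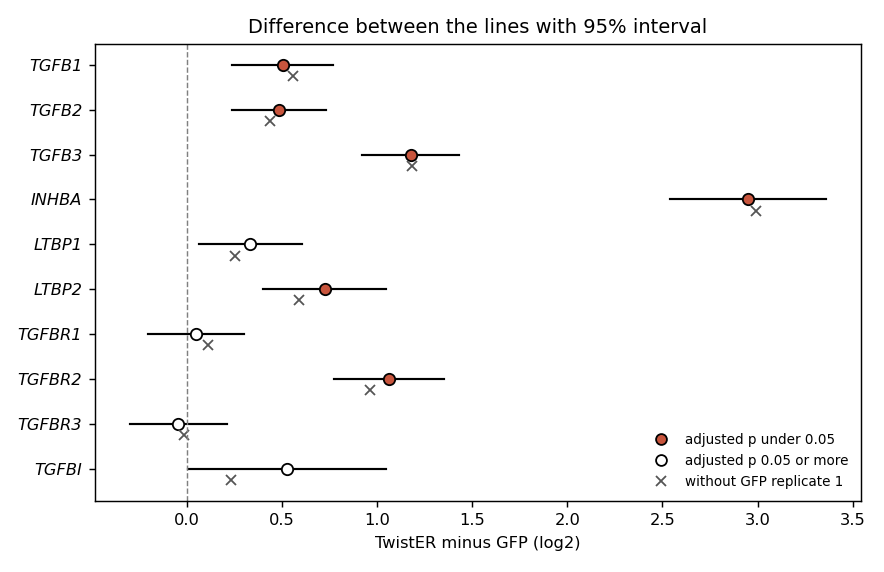
Difference TwistER minus GFP on the log2 scale (horizontal axis) with limma's unadjusted 95% interval for each gene, filled in red where the adjusted p is under 0.05, and a cross for the difference without GFP replicate 1. INHBA lies at 2.95, TGFB3 and TGFBR2 at 1.17 and 1.06, and the cross of TGFBI lies at 0.23 against 0.53 with all arrays.

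Genes that store, tether or release latent TGF-beta moved in both directions. Of 24 such genes measured, 4 rose (16.7%) and 2 fell (8.33%), where 4.72% of all genes rose and 4.11% fell. Their median difference was 0.055. At an unadjusted limma p under 0.05, 7 were higher and 3 lower, where 10.4% of all genes were higher and 11.1% lower. ITGB6, the epithelial integrin subunit that activates latent TGF-beta, read 6.76, 6.84 and 6.72 in GFP and 3.65, 3.77 and 3.94 in TwistER, and fell 7.95-fold (-2.99 ± 0.12, limma adjusted p = 4.13e-06). Its TwistER mean lay at the 18.4 percentile of brightness, in the dim range where background light compresses differences. ITGB8, the subunit of another activating integrin, fell 1.38-fold (-0.47 ± 0.11, adjusted p = 0.0284). Their shared partner ITGAV rose 1.35-fold (0.43 ± 0.11, adjusted p = 0.0385), as did the alternative partners ITGB5 (2.04-fold, adjusted p = 0.0429) and ITGB3 (1.44-fold, adjusted p = 0.0416). FBN1, the microfibril protein to which latent complexes are tethered, rose 4.61-fold (2.21 ± 0.15, adjusted p = 6.38e-05). The calls of ITGB8, ITGAV and ITGB3 held when GFP replicate 1 was dropped but failed when any of the other 5 arrays was, with highest limma adjusted p-values of 0.113, 0.163 and 0.152. ITGB5 lost its call without GFP replicate 3 or any TwistER array (highest 0.146), and its own GFP values were 6.28, 7.41 and 7.15. FURIN, the protease that cleaves the propeptide, differed by -0.71 without passing (limma adjusted p = 0.0807). It passed without GFP replicate 1 (0.00159), and it was singled out after its values were seen. On the higher side, THBS1 (0.73), LRRC32 (0.44) and PCSK6 (0.28) did not pass either, and were likewise named after their values were seen.

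None of the 17 other activin, nodal and GDF ligands and antagonists passed the limma test, where 4.72% of all genes rose and 4.11% fell. Their differences ranged from -0.35 to 0.37 with a median of -0.013. At an unadjusted p under 0.05, 1 was lower (FSTL3) and 0 were higher, where 11.1% of all genes were lower and 10.4% higher. The next sentences on single genes of this list were likewise chosen after the values were seen. INHA, the alpha subunit that turns a beta subunit into an inhibin, had a difference of -0.013 ± 0.11 (95% interval -0.27 to 0.25), and INHBB, the other activin subunit of most tissues, -0.21 ± 0.10. Follistatin (FST), which neutralises activin, had 0.34 ± 0.16 (limma adjusted p = 0.272), and its relative FSTL3 -0.35 ± 0.12 (0.129). Of these 17 genes, 7 lay below the 25 percentile of brightness.

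Among 12 other receptors and co-receptors, 3 rose and 0 fell, where 4.72% of all genes rose and 4.11% fell. The median difference of the 12 was 0.089. At an unadjusted limma p under 0.05, 3 were higher and 1 lower (ACVR1C), where 10.4% of all genes were higher and 11.1% lower. NRP1, a co-receptor that also binds TGF-beta, rose 1.88-fold (0.91 ± 0.16, limma adjusted p = 0.00893). Endoglin (ENG), a relative of betaglycan, rose 1.59-fold (0.67 ± 0.12, adjusted p = 0.00921). ACVR2A, a type II receptor for activin, rose 1.63-fold (0.70 ± 0.16, adjusted p = 0.0310), a call that failed on dropping any array but GFP replicate 1 (highest 0.129).

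Most SMADs and intracellular regulators did not pass. Of 32 measured, 2 rose (6.25%) and 1 fell (3.12%), 29 were not called, and the median difference was 0.018. These shares lie near the 4.72% and 4.11% of all genes. DAB2, an endocytic adaptor reported to link TGF-beta receptors to SMADs, read 6.50, 6.65 and 6.78 in GFP and 9.47, 9.59 and 9.47 in TwistER, and rose 7.28-fold (2.86 ± 0.11, limma adjusted p = 5.14e-06). The co-repressor TLE4 rose 3.45-fold (1.79 ± 0.12, adjusted p = 5.00e-05). PMEPA1, itself a TGF-beta target that restrains SMAD signalling, fell 1.75-fold (-0.81 ± 0.14, adjusted p = 0.00721). The SMADs were looked at after their values were known: SMAD2 had a difference of -0.11 ± 0.10, SMAD3 0.29 ± 0.14, SMAD4 0.30 ± 0.10, and the inhibitory SMAD6 and SMAD7 0.26 ± 0.13 and 0.0036 ± 0.15. None of these 5 passed in limma, and the smallest adjusted p was 0.113, for SMAD4. Over these 4 lists together, 9 of 85 genes rose (10.6%) and 3 fell (3.53%), against 4.72% and 4.11% of all genes. Without GFP replicate 1 the counts were 10 and 5, where 6.97% of all genes rose and 8.09% fell. The rises numbered 5 without GFP replicate 3 (where 3.51% of all genes rose) or without TwistER replicate 1 (2.83%), 2 (2.57%) or 3 (2.98%). Their median difference was 0.0051, close to the 0.0063 of all genes.

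**Figure D4:**
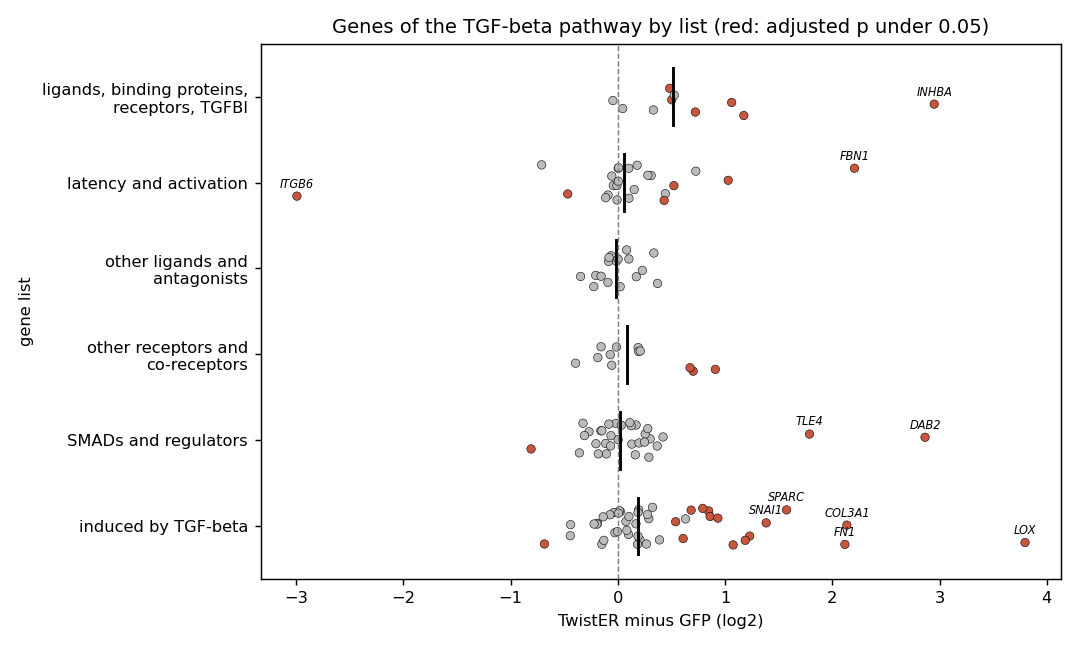
Difference TwistER minus GFP on the log2 scale (horizontal axis) for every measured gene of each list (rows, points spread vertically for legibility), red where the adjusted p is under 0.05, with a black bar at the list's median. The ligands, binding proteins, receptors and TGFBI have a median of 0.51, and the lists below them medians between -0.013 and 0.19.

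Transcripts that TGF-beta is known to induce were described by the same counts. Of 47 measured, 15 rose and 1 fell, 31 were not called, and the median difference was 0.19. These are 31.9% and 2.13% of the list, beside 4.72% and 4.11% of all genes, so the share that fell was not above that of all genes. Dropping GFP replicate 1 gave 16 rises and 3 falls, where 6.97% of all genes rose and 8.09% fell. The 6 with the largest differences were LOX, which crosslinks collagen (3.80 ± 0.13, limma adjusted p = 3.06e-06), the fibrillar collagen COL3A1 (2.13 ± 0.15), fibronectin FN1 (2.12 ± 0.22), the matrix glycoprotein SPARC (1.57 ± 0.13), the repressor SNAI1 (1.38 ± 0.12) and the matricellular protein CCN2 (1.23 ± 0.14). JUNB, an AP-1 subunit and early target, was the 1 of this list that fell (-0.68 ± 0.12, adjusted p = 0.00861, named for that count). Its call was lost without TwistER replicate 2 (limma adjusted p = 0.0516). PMEPA1 and TGFBI, named above as induced by or targets of TGF-beta, are not in this list. PMEPA1 fell (-0.81) and TGFBI did not pass. Of this list 3 genes are also fibroblast markers of the list above, COL3A1 among them. Other pathways induce many of these genes too, and their part was not tested.

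For each gene that rose, the 2 genes with the most similar values over the 6 arrays were found among 16132 protein-coding genes. Since the points are 6 arrays of 2 lines, a high Pearson r describes mostly the step between the lines. INHBA was most like ALDH1L2, a mitochondrial folate enzyme (r = 0.998), and PRPS1, a nucleotide synthesis enzyme (0.997). TGFB3 was most like CNTNAP1 and ARHGEF26 (both 0.998), and TGFBR2 most like ANXA6, a membrane-binding annexin (0.999), and BACE1, a membrane protease (0.998). TGFB2 followed RNF216 (0.9996) and the thyroid hormone receptor THRB (0.998), LTBP2 followed BCAS3 (0.999) and SNX33 (0.997), and TGFB1 followed KCTD12 (0.996) and PCNT (0.995). PCNT itself differed by 0.12 and was not called (limma adjusted p = 0.549).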

How the data were processed

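Biotin-labelled material prepared from the RNA of 6 H358 samples was hybridised to an Affymetrix human gene array. The authors deposited log2 values per probe set that, per the submitters' processing notes, come from RMA; its version and settings were not given in the sources used here. Because RMA equalises the distributions of the arrays, a shift of the whole transcriptome would not show, and the number of arrays limits the precision. Groups came from the labelled treatment and replicate numbers from the titles.

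Probe sets (33297) were named through the platform annotation; the 19460 with 1 symbol gave 18417 genes, each taking its brightest probe set over all 6 arrays. A 2-sided limma test (version 3.58.1, R 4.3.3, lmFit then eBayes) without covariates or a filter on brightness compared the lines, and its p-values were adjusted by Benjamini-Hochberg over all 18417 genes, with calls under 0.05. A fold is 2 to the power of the log2 difference; SE and intervals come from limma. The code was tested on simulated data. Deviations from the group means correlated at 0.139, 0.0154 and 0.157 for same-numbered arrays 1, 2 and 3. Differently numbered arrays gave -0.160 to 0.0400, so the values for numbers 1 and 3 lay above all of these. The main fit used no pairing.

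The members and gene lists were chosen with earlier results of these data known. Named are the 10 genes, the genes of each list that passed (the 6 largest differences where more did), and the 2 genes most like each member that rose; others stand as the ends of a brightness range or are marked as chosen after seeing values. Motifs were counted in RefSeq windows and were chosen in the same way. Alternatives were other normalizations, filters, probe set rules, variance models, a replicate block, each array left out and other thresholds. Of the listed genes, those without a probe set of 1 symbol are not analysed here. Plots used Python 3.11.15 and matplotlib 3.10.9.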

Additional observations from a re-analysis of the deposited data

How the results depend on the processing

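Of 176 results for single genes (the 10 genes under each alternative that kept them), 159 kept their direction and side of the threshold, 16 lost the call and 1 reversed. The reversal was TGFBR1 without GFP replicate 3, at -0.0097, within a range up to 0.11 with 1 array left out. Many of these results could not change direction. Other thresholds reuse the main fit, and brightness filters, the trended variance model and the replicate block keep each gene's main difference. With 1 probe set per gene, the probe set rules left the values of the 10 as they were. The 159 is therefore not a count of independent checks. INHBA, TGFB3 and TGFBR2 passed under every alternative that kept them. The filter at the 50 percentile of brightness left out INHBA, TGFB1 and TGFBR3, and that at the 25 percentile TGFBR3. The members that rose numbered 3 to 6 with 1 array left out, 3 at an adjusted p under 0.01, and 5 with the replicate block, where TGFB1 did not pass (limma adjusted p = 0.0635); the members that fell were 0 throughout. In their deviations from the group means, same-numbered arrays correlated best with each other for replicates 1 and 3. By the same measure, GFP replicate 2 did not correlate best with TwistER replicate 2. The replicate block rests on that shared number, and all changed genes numbered 1592 with it. With 1 array left out, all changed genes numbered 831 to 2773, other pathway genes that rose 5 to 10 and fell 2 to 5, and induced transcripts that rose 11 to 16 and fell 0 to 3. Array weights gave 3268 changed genes, 7 other pathway genes that fell and 3 induced transcripts that fell. At an adjusted p under 0.01 there were 807 changed genes of 18417, and 5 other pathway genes that rose. At 0.1 there were 2389 changed genes, and 5 other pathway genes and 2 induced transcripts that fell. Either brightness filter also gave 2 induced transcripts that fell, with 1743 of 13812 genes changed (25 percentile) and 1581 of 9208 (50 percentile). The changed genes were not split by direction under these settings, so nothing is read from these counts against all genes. The cause of the changes with array weights or single arrays was not tested. Background light limits dim probe sets such as TGFBR3 and, in GFP, INHBA.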
